A study of Caenorhabditis elegans with 2 samples.

Results

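The nematode C. elegans carries 5 genes of the Sox family that were examined here: sem-2, sox-2, sox-3, sox-4 and egl-13. They were taken by name, whatever their values, as 5 of 19973 nuclear protein-coding genes. A peak was assigned to a gene when its summit lay between 5000 bp upstream of the annotated 5′ end and the 3′ end of the gene, an interval called the gene window. Binding of SEM-2 had been profiled by chromatin immunoprecipitation and sequencing (ChIP-seq) in 1 group of 2 biological replicates, numbered 1 and 3. Both came from strain OP701, which carries the unc-119(tm4063) mutation and the transgene wgIs701, made of sem-2::TY1::EGFP::3xFLAG and a working unc-119(+) marker. The tag sits at the C terminus of SEM-2. Embryos of mixed stage and of both sexes pooled, labelled 1 hour of age, were obtained by egg bleaching as whole organisms, and sonicated chromatin of 200 to 800 bp was precipitated with an antibody against GFP, although the antibody field of the labels reads sem-2. The number of transgene copies, where they inserted and how far they reach beyond the coding sequence are not stated in the sources used here. Sequence reads from the transgene and from the native sem-2 gene cannot be told apart in these lists. There was no second condition, so every comparison below is a description with no test. The lists hold no expression values, so the embryonic tissues could not be checked against markers.

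Sox proteins are transcription factors with an HMG box, a domain that binds the minor groove of DNA and bends it. They often act beside a partner factor, and they are known for keeping progenitors uncommitted or for fixing cell fate. SEM-2 is the SoxC protein of the worm and sets the sex myoblast fate in the postembryonic M lineage. SOX-2 and SOX-3 belong to the SoxB group, and SOX-2 is needed for a rectal cell, Y, to turn into the neuron PDA. EGL-13 is the SoxD protein, which acts in the pi cells of the uterus and in the BAG neurons that sense gases.

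The authors deposited 1 list of 30000 peaks for each replicate, 1 list of 30000 peaks from the reads of both replicates, here called the combined list, and 634 thresholded peaks. The thresholded peaks were the strongest of the combined list. The combined list is labelled as peaks and background, so a weak entry in it is not by itself evidence of binding. Each peak carries the peak caller's signal value, and rank 1 is the highest signal in a list. Signal values describe peaks only within their own list, because their scaling is not given, and ranks are set side by side because the 3 full lists are of equal length. No read counts were given, so the depth is unknown and no counting error can be attached to a peak. The replicate lists differed in general ways. The highest signal was 3325 in replicate 1 and 563 in replicate 3, the median peak width 460 and 400 bp, and the number of peaks at the highest −log10 q-value 900 and 180. On the mitochondrial genome lay 21 peaks of replicate 1 and 0 of replicate 3. The X chromosome, which carries sox-2, sox-3, sox-4 and egl-13, held 0.220 peaks per kb in replicate 1 and 0.324 in replicate 3, and whether this had a part in the larger number of replicate 3 peaks at those genes was not tested.

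The strongest SEM-2 peaks at any Sox gene lay at sem-2 itself. Of the 5 genes, 1 held a thresholded summit, and that gene was sem-2, whereas 4.99% of all nuclear protein-coding genes held one. In the combined list 4 of the 5 had a summit, against 71.5% of all genes. In replicate 1 the count was 4 of 5, against 68.7%, and in replicate 3 it was 5 of 5, against 81%. Counts of genes with any peak of the full lists were therefore near the background.

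The gene sem-2 (WBGene00004771) lies on the minus strand of chromosome I at 5204530 to 5219815 in the ce11 assembly. It is a long gene, most of it intron 1 and intron 2, and coding exons make up 5.97% of its 20.3 kb window. It held 3 thresholded peaks. As many or more were found at 8 genes in all, sem-2 included (0.0401% of protein-coding genes). A long window has more room for peaks, and of the 385 genes with a window at least as long as that of sem-2, 53 (13.8%) had a thresholded summit and 3 (0.779%) had 3 or more. Of the genes of that length, 2 others, lit-1, a Nemo-like kinase gene, and ppfr-1, of a protein phosphatase complex, had as many or more; both were named after their values were seen.

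The strongest peak at sem-2 covered 5205297 to 5205732, with a signal of 226.7 and rank 300 in the combined list. Its summit lay in coding exon 7, the last exon, 14300 bp from the 5′ end and 203 bp before the last coding base. This is the end of the gene to which the tag is fused. In replicate 1 the peak had a signal of 55.2 and rank 3945. In replicate 3 it had a signal of 155 and rank 103. The peak was thus among the strongest in replicate 3 and well below the strongest in replicate 1.

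The second peak, at 5209851 to 5210286 in intron 2, had a signal of 189 and rank 407. It ranked 480 in replicate 1, with a signal of 113.8, and 609 in replicate 3, with a signal of 74.7. The ranks of this intronic peak were close in the 2 replicates. The third peak, at 5206319 to 5206754 in coding exon 5, had a signal of 172 and rank 479. It ranked 1990 in replicate 1 and 192 in replicate 3, so both exonic peaks stood higher in replicate 3. When only the outermost 5′ end of each protein-coding gene was counted, that of osr-1 was nearest to each of these 3 summits. This gene of the osmotic stress response lies beyond the 3′ end of sem-2, and the distances were 2011, 6565 and 3033 bp. An internal transcript start of sem-2 lay closer to the intron 2 summit, at 1941 bp, and to the exon 5 summit, at 1591 bp. From the exon 7 summit that start was 2613 bp away, farther than the 5′ end of osr-1.

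The combined list added weaker peaks inside sem-2, to a total of 10. Of these, 4 summits lay in coding exons, 6 in introns and 0 in the 5000 bp upstream. The fourth peak ranked 891 and lay in intron 2. It ranked 1824 in replicate 1 and 1903 in replicate 3. A peak in coding exon 3, 48 bp downstream of an internal transcript start, ranked 4839 in the combined list, although the overlapping peaks ranked 975 in replicate 1 and 344 in replicate 3. The summit in replicate 1 lay at 5207704 in intron 3, and that in replicate 3 at 5208056 in exon 3, so the replicates placed their summits apart. A weaker peak in coding exon 5 (rank 18509) overlapped the thresholded peak in that exon, so these 2 are not separate regions. The weakest of the 10 peaks ranked 27635. Overlap with a peak of both replicates was found for 7 of the 10.

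**Figure D1:**
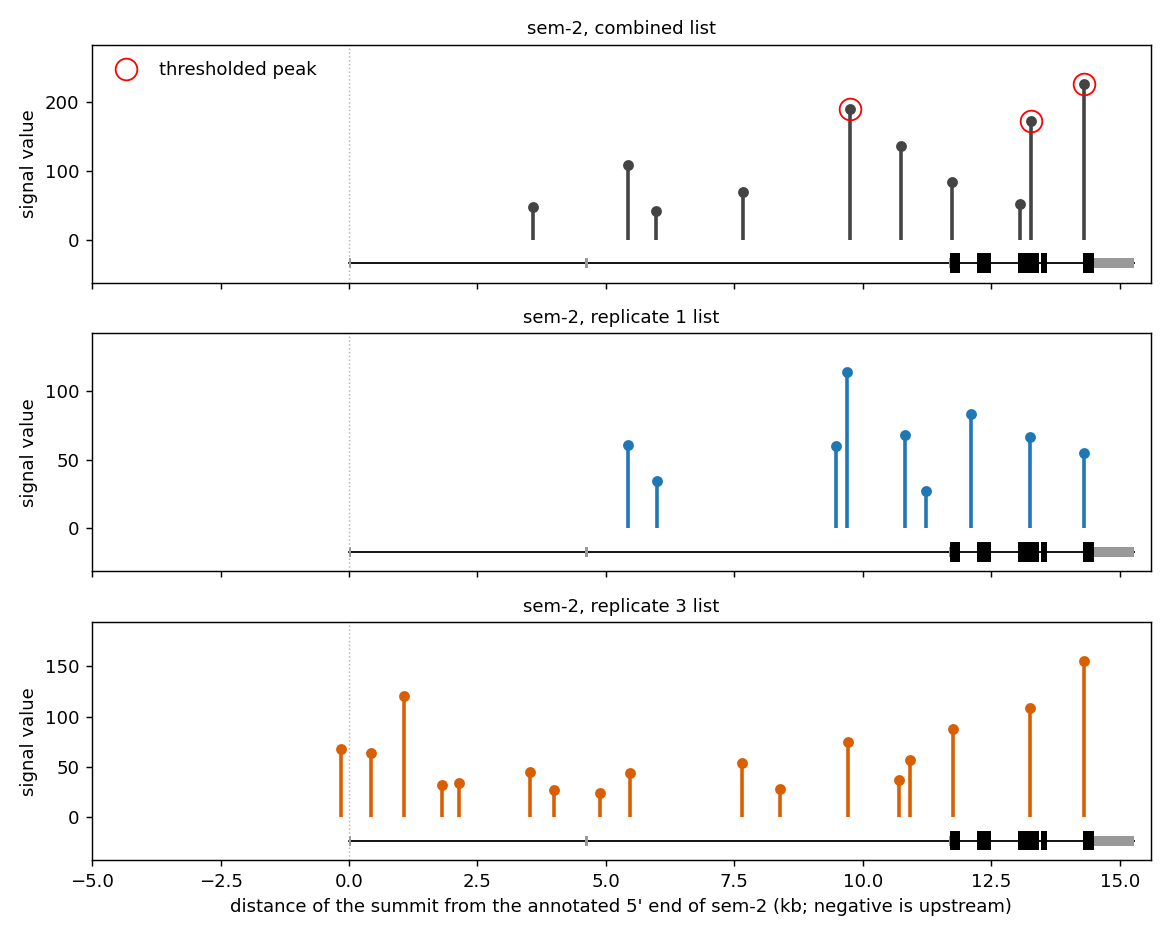
Signal value of each peak summit (vertical axis) against its distance in kb from the annotated 5′ end of sem-2 (horizontal axis), in the combined, replicate 1 and replicate 3 lists from top to bottom, each with its own scale. Under the stems are the gene's coding exons (black), untranslated exons (grey) and introns (line), and red circles mark the 3 thresholded peaks; the strongest in the combined and replicate 3 lists stand over the last exon, and summits near the 5′ end appear in replicate 3 alone.

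The replicates differed at the 5′ end of sem-2. Replicate 3 had a summit 163 bp upstream of the 5′ end, with rank 916 and a signal of 67.5. It had another 1072 bp downstream, in intron 1, with rank 161 and a signal of 120. One more, 435 bp downstream, had rank 1129, and weaker summits at 1805 and 2145 bp ranked 15184 and 12707. None of these 5 peaks overlapped a peak of replicate 1 or of the combined list, so the 5′ end of sem-2 held peaks in replicate 3 alone. Among the 634 strongest peaks of replicate 3, 14 (2.21%) overlapped no combined peak and 55 (8.68%) overlapped no replicate 1 peak. The peak 1072 bp downstream belonged to both sets. Over the whole window replicate 1 had 9 peaks, with 2 summits in coding exons and 7 in introns, and replicate 3 had 17, with 3 in coding exons, 13 in introns and 1 upstream.

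Neither the combined list nor replicate 1 had a summit within 20 kb beyond either end of sem-2. Their 5′-most summits lay inside the gene, 3586 and 5428 bp from its 5′ end. Within the gene body the combined list had 10 summits, replicate 1 had 9 and replicate 3 had 16. Within 20 kb beyond either end, the combined list and replicate 1 had 0 summits, and replicate 3 had 2 on each side. Of 5010 tiles of 20 kb across the nuclear genome, 10.3% held no combined summit, 11.6% none of replicate 1 and 5.15% none of replicate 3. The stretch without a combined summit was 22.5 kb long beyond the 3′-most peak and 29.7 kb long beyond the 5′-most, whereas the median distance between neighbouring combined summits was 1.57 kb. Distances at least that long made up 1.85% and 1.07% of all. In replicate 1 the empty stretches were 24.0 and 30.2 kb, and in replicate 3 the next summits lay 1.04 and 0.598 kb away. The flanks were thus not empty in replicate 3, but its 2 summits on each side were below its median of 6 per tile of 20 kb. The gene body held 6.54 combined summits per 10 kb, against a mean of 2.99 over all tiles of 10 kb. From 20 to 40 kb beyond the 3′ end, each step of 10 kb held 6. Beyond the 5′ end those steps held 2 and 4. Over the whole sem-2 window the density was 0.493 combined summits per kb, reached by 22.05% of genes, so it was not unusual. That share was 26.3% in replicate 1 and 3.13% in replicate 3. Whether the transgene copies had a part in the summit counts of the gene body and its flanks was not tested. The native gene of the transgene's marker, unc-119, which works in neurons, held 0 thresholded peaks and 4 combined peaks, the best of rank 8611. Its best ranks were 5064 in replicate 1 and 13757 in replicate 3. How much unc-119 sequence the transgene carries is not stated, and whether these peaks bear on the transgene copies was not tested.

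**Figure D2:**
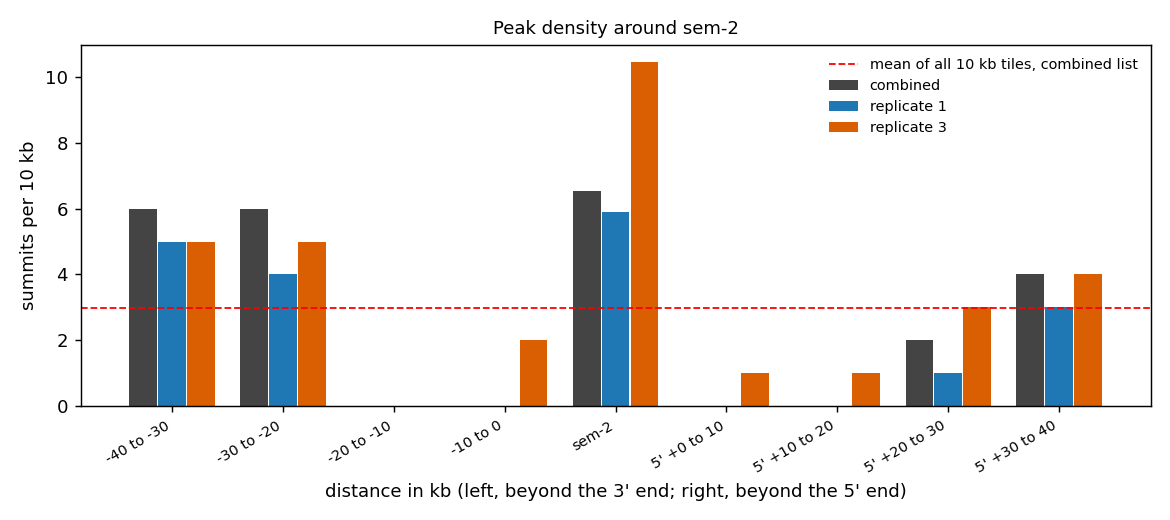
Number of peak summits per 10 kb (vertical axis, from 0) in the sem-2 gene body and in steps of 10 kb beyond its 3′ end (left) and 5′ end (right), for the combined (grey), replicate 1 (blue) and replicate 3 (orange) lists. The gene body stands at 6.54, 5.89 and 10.5 summits per 10 kb, the combined and replicate 1 lists are at 0 out to 20 kb on both sides, and the dashed line is the mean of 2.99 over all 10 kb tiles of the genome in the combined list.

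The order of the genes by their best peak was sem-2, sox-2, sox-3, egl-13 in the combined list, with ranks 300, 2692, 3998 and 6006, and sox-4 had no peak. For sem-2 the best rank was 480 in replicate 1 and 103 in replicate 3. For sox-2 it was 2277 and 1643. The best rank of sox-3 was 5760 in replicate 1 and 1543 in replicate 3, and that of egl-13 was 6720 and 4365. The ranks of sem-2 did not overlap those of any other Sox gene. The ranks of sox-2 fell inside the spread of sox-3, and those of sox-3 overlapped the spread of egl-13, so these neighbours in the order were not separated by the replicates. The share of all protein-coding genes with a best combined peak at least as strong was 2.44% for sem-2, 17.2% for sox-2, 23.3% for sox-3 and 31.0% for egl-13. These ranks and shares take no account of window length. The windows were 20.3, 10.5, 7.19 and 15.2 kb in that order, against a median of 7.03 kb over all genes. The −log10 q-value of the best combined peak was 1.92 at sem-2, 1.08 at sox-2, 0.807 at sox-3 and 0.606 at egl-13. The value at sem-2 is the highest in the combined list and is shared by 791 peaks.

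**Figure D3:**
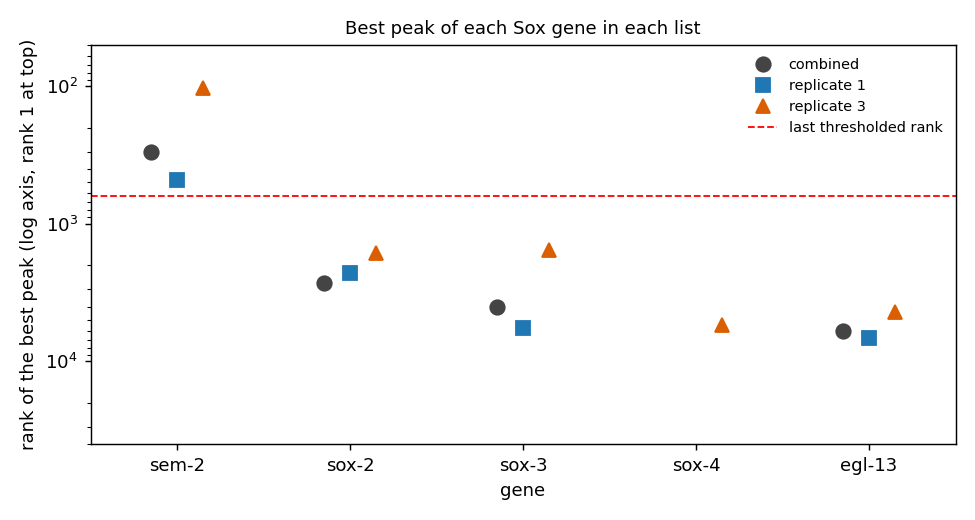
Rank of the best peak in each gene window (vertical log axis, rank 1 at the top) for the 5 Sox genes in the combined (grey circle), replicate 1 (blue square) and replicate 3 (orange triangle) lists. The 3 points of sem-2 (300, 480 and 103) stand above the dashed line at rank 634, the last thresholded peak, all other points lie below it, and sox-4 has a point in replicate 3 alone, at 5464.

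The SoxB gene sox-2 (X, minus strand, 7458280 to 7463736) had many peaks of moderate rank. Its 10.5 kb window held 0 thresholded and 11 combined summits, 7 upstream and 4 in introns. That is 1.05 per kb, a density reached by 1.11% of protein-coding genes, whose median was 0.249 per kb. Replicate 1 had 9 and replicate 3 had 10, and 8 of the 11 combined peaks overlapped a peak in both. The density of sox-2 thus held in each replicate, with 0.861 per kb in replicate 1 (reached by 4.25% of genes) and 0.956 per kb in replicate 3 (1.26%). Neighbouring peaks of this window overlap each other, so 11 summits are fewer separate regions. All upstream combined summits except that 908 bp upstream lay inside coh-1, the gene of a cohesin kleisin subunit. The 2 strongest peaks were among them. The first, at 7468055 to 7468490 in an intron of coh-1 and 4537 bp upstream of sox-2, had a signal of 98.2. Its signal was 45.1 in replicate 1 (rank 7695) and 43.5 in replicate 3 (rank 5912). The second, at 7465782 to 7466217 over an exon of coh-1 and 2264 bp upstream, had a signal of 85.0 and rank 4605. It ranked 4950 in replicate 1 and 17122 in replicate 3, a wider spread than that of the first. The replicates also had different leaders: replicate 1 had its best peak 3212 bp upstream and replicate 3 had its best 3921 bp upstream. For both described summits the nearest 5′ end of a protein-coding gene was that of sox-2. The ncRNA gene K08A8.11 lay within 100 bp of the summit 4537 bp upstream.

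The sequences under the 2 strongest sox-2 peaks are shown because each holds a Sox word beside its summit. They are the plus strand of WBcel235 from RefSeq, the same assembly as ce11, 101 bases centred on the summit. Capitals mark CATTGT and ACAATG in the first, and in the second CTTTGAA, the reverse complement of a match to the consensus WWCAAWG (W is A or T).
sox-2 peak 1, chrX:7468223-7468323: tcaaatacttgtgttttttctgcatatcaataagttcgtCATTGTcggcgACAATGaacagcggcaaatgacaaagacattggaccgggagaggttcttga
sox-2 peak 2, chrX:7465950-7466050: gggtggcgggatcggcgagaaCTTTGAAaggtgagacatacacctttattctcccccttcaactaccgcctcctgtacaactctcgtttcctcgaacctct
In the first sequence the centre of ACAATG lies 3 bp from the summit and that of its reverse complement 8 bp away on the other side, with 5 bases between the words. This inverted pair at that spacing was found in 1 of 29982 nuclear combined windows (0.00334%), the one shown. The arrangement was chosen after the sequence was seen, so its rarity is a description of this window only. In the second sequence the consensus match lies 26 bp from the summit.

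The other SoxB gene, sox-3 (X, minus strand, 14690816 to 14693005), is compact, and its peaks lay mostly in the next gene. Its 7.19 kb window held 6 combined summits, 5 upstream and 1 in a coding exon. Replicate 1 had 2 peaks and replicate 3 had 5. The density of 0.834 combined summits per kb was reached by 4.30% of genes, but in replicate 1 it was 0.278 per kb, reached by 44.1% of genes, so the density did not hold in that replicate. The strongest peak, at 14697375 to 14697810 and 4588 bp upstream, lay in an intron of hch-1, which encodes an astacin protease needed for hatching. It had a signal of 88.4, and it ranked 5760 in replicate 1 and 5007 in replicate 3. The second, 3566 bp upstream over an exon of hch-1, had a signal of 77.3 and rank 6451. It ranked 25081 in replicate 1 and 1543 in replicate 3, a far wider spread. For both, the nearest 5′ end of a protein-coding gene was that of hch-1, at 2384 and 3406 bp. Assigning them to sox-3 thus rests on the 5000 bp window. A peak 31 bp upstream of sox-3 itself ranked 27521 in the combined list and overlapped a peak of neither replicate.

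Both sox-3 sequences are given as for sox-2, the strongest peak because it leads the gene and the coding-exon peak because it holds a consensus match, TTCAATG, in capitals.
sox-3 peak 1, chrX:14697543-14697643: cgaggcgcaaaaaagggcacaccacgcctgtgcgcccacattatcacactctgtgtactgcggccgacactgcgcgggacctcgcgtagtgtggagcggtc
sox-3 peak 4, chrX:14692351-14692451: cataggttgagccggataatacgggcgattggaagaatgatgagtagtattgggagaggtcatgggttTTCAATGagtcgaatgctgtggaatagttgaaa
The strongest sox-3 window has neither the consensus nor the words AACAAT or ACAATG, and its GC content is 63.4%, against a median of 42.6% over all nuclear combined windows. The coding-exon peak (rank 21389) has its match 21 bp from the summit. It overlapped a peak of replicate 3 and none of replicate 1.

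The SoxD gene egl-13 (X, plus strand, 5663837 to 5674067) had weaker and more scattered peaks. Its 15.2 kb window held 7 combined summits: 3 upstream, 3 in introns and 1 in an untranslated exon. Replicate 1 also had 7 and replicate 3 had 9, and 4 of the 7 combined peaks overlapped a peak in both. The 0.460 summits per kb were reached by 25.6% of genes, so the density was not unusual. The strongest peak, at 5661308 to 5661743, lay 2311 bp upstream over the ncRNA genes T22B7.18 and T22B7.20. Of the protein-coding genes, T22B7.22 had the nearest 5′ end, 1559 bp from the summit. The peak had a signal of 78.9, and it ranked 7947 in replicate 1 and 15586 in replicate 3. The second lay 656 bp upstream, over the ncRNA gene T22B7.15, with a signal of 73.1 and rank 7697. It ranked 28423 in replicate 1 and 6112 in replicate 3, the reverse order of the first. Each replicate had its own best peak inside the gene: in replicate 1 at 6953 bp from the 5′ end, with rank 6720 and no overlap in replicate 3, and in replicate 3 at 4985 bp, with rank 4365 and no overlap in replicate 1.

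The 2 strongest egl-13 windows are shown to set them beside those of sox-2. In the second, capitals mark CATTGT, the reverse complement of ACAATG.
egl-13 peak 1, chrX:5661476-5661576: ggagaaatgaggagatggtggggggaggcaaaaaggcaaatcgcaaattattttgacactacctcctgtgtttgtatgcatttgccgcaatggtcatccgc
egl-13 peak 2, chrX:5663131-5663231: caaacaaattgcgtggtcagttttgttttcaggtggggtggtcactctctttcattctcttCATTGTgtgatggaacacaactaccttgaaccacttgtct
The marked word lies 14 bp from the summit of the second peak. The first window holds no match to the consensus or to either word.

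The gene sox-4 (X, minus strand, 3505270 to 3509006) had the fewest peaks. No summit of the thresholded, combined or replicate 1 list lay in its 8.74 kb window. Replicate 3 had 3, of ranks 5464, 20070 and 24404, the first 2 in intron 1 and the third 2447 bp upstream. The signal of the first was 44.5. The −log10 q-values of the 3 were 0.763, 0.218 and 0.167. A best peak at least as strong as the first was found for 31.3% of genes in replicate 3. Peaks at sox-4 were thus listed in 1 replicate and at a common rank, which does not establish binding there. The upstream peak is shown because it is the only one at sox-4 with a consensus match, CATTGAA on the plus strand, 21 bp from its summit.
sox-4 replicate 3 peak 3, chrX:3511403-3511503: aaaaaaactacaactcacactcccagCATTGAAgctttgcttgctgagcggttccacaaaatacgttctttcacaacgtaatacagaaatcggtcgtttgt

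**Figure D4:**
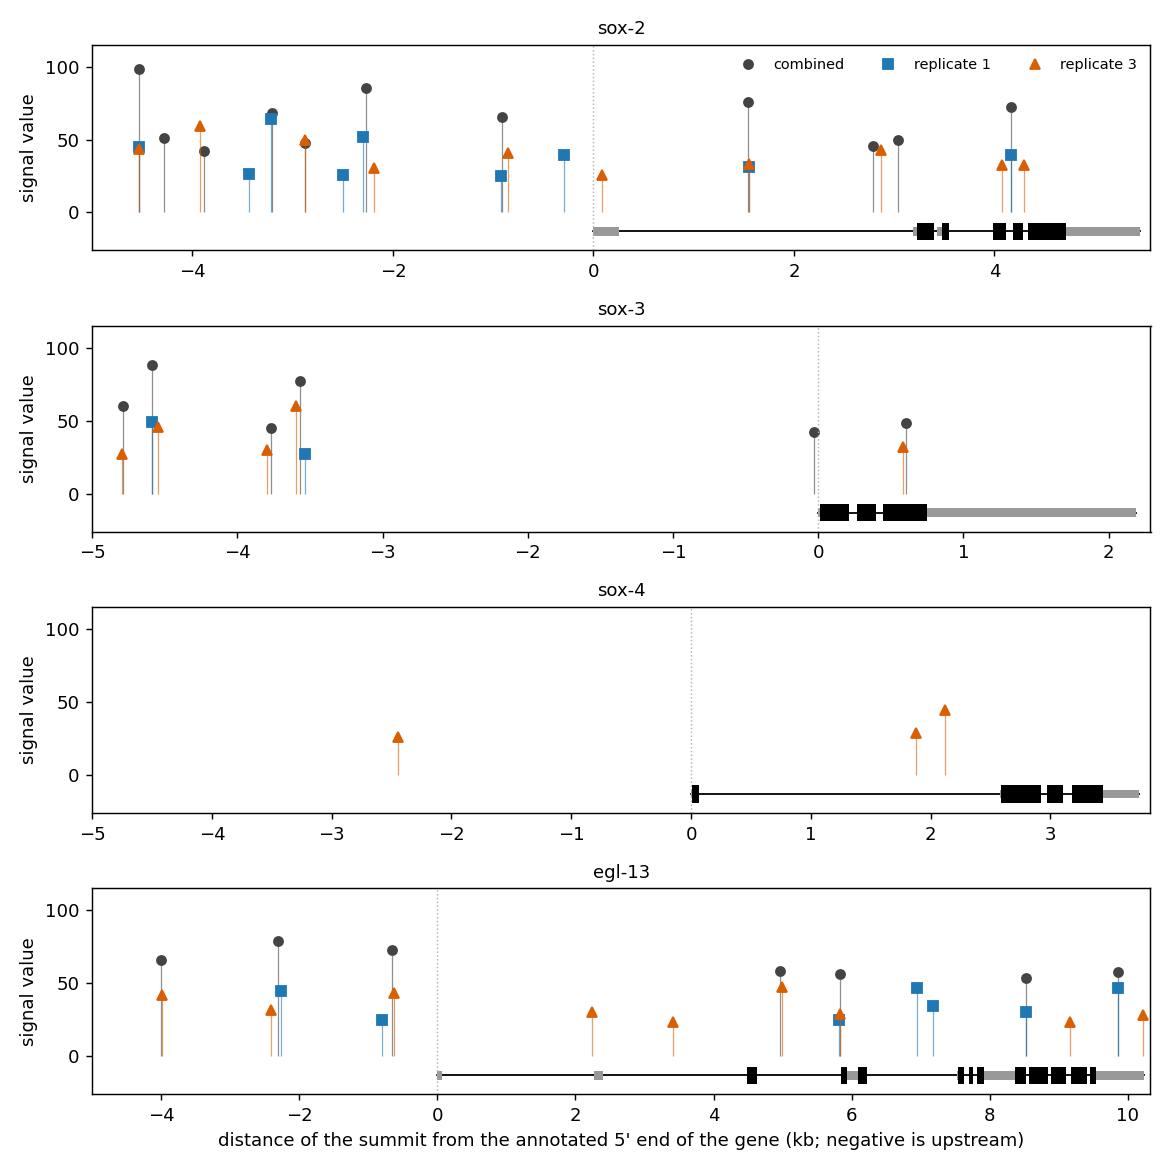
Signal value of each peak summit (vertical axis) against its distance in kb from the annotated 5′ end (horizontal axis) for sox-2, sox-3, sox-4 and egl-13, in the combined (grey circles), replicate 1 (blue squares) and replicate 3 (orange triangles) lists. Black boxes are coding exons, grey boxes untranslated exons and lines introns; the highest combined values are 98.2 at sox-2, 88.4 at sox-3 and 78.9 at egl-13, all upstream of the gene, and sox-4 has 3 summits of replicate 3 alone.

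In the combined list the peaks of sem-2 lay inside the gene, and those of sox-2 and sox-3 mostly upstream. Of the 34 combined summits at the Sox genes, 15 were upstream, 13 in introns, 5 in coding exons and 1 in an untranslated exon. All 15 upstream summits belonged to sox-2, sox-3 and egl-13, and 4 of the 5 in coding exons belonged to sem-2. Upstream sequence made up 24.6% of the sem-2 window, 47.8% of that of sox-2, 69.5% of that of sox-3 and 32.8% of that of egl-13, so sem-2, with 0 upstream summits, also had the smallest upstream share of these 4 windows. In replicate 3, sem-2 had 1 upstream summit of 17, sox-2 had 5 of 10, sox-3 4 of 5, egl-13 3 of 9 and sox-4 1 of 3, so upstream summits were the majority at sox-3 alone in that replicate. The coding summits of sem-2 were 4 of 10 in the combined list, among them the 2 overlapping peaks of exon 5, then 2 of 9 in replicate 1 and 3 of 17 in replicate 3. Coding sequence made up 5.97% of the window. No Sox peak lay within 100 bp of a tRNA, snoRNA, snRNA or miRNA gene, and 11 of the 34 had another RNA gene within that distance. Of the 34, 23 (67.6%) overlapped a peak in both replicates by at least 1 bp, against 14971 of 29982 nuclear combined peaks (49.9%). That count was 17 when 50% of the shorter peak had to overlap, and 14 with the 15000 strongest peaks of each replicate. Peaks at 1 gene overlap each other, so the 34 are not independent and the 2 shares were not tested against each other.

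Few of these peaks had the Sox consensus at the summit. WWCAAWG on either strand within 50 bp of the summit was present at 2 of 34 Sox peaks (5.88%), those of sox-2 and sox-3 shown above, and at 12.4% of all nuclear combined windows of 101 bases. At sem-2 it was present at 0 of 10. The shorter words AACAAT or ACAATG, which overlap each other and the consensus in part, were present at 7 of 34 (20.6%), against 12.6% of all windows. At sem-2 they were present at 2 of 10 peaks, the strongest, where the word lay 39 bp from the summit, and the weakest. Within 100 bp of the summit, a width added for these words after the data were seen, they were present at 15 of 34 (44.1%), against 24.1% of all windows. The consensus at that width was present at 6 of 34 (17.6%), against 24.5%. The 2 searches thus stood on opposite sides of the background at both widths, and no test was made. The median GC content of the windows was 44.1% at sem-2, 44.6% at sox-2, 49.0% at sox-3 and 43.6% at egl-13, against 42.6% over all.

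Genes with the most similar pair of best ranks in the 2 replicates were sought among 12567 genes with a peak in both replicate lists, by the distance between log10 ranks. For sem-2 these were F44E5.4 and F44E5.5, which share 1 peak, with ranks 431 and 132 in replicates 1 and 3. For sox-2 they were F56C9.10 (2224 and 1712) and lrp-2 (2163 and 1622), the latter a gene of the LDL receptor family. The closest to sox-3 was hch-1, which holds the same peaks, followed by Y48A6B.8 (5745 and 1528). For egl-13 they were mcu-1 (6740 and 4296), the gene of the mitochondrial calcium uniporter, and F53E4.1 (6880 and 4351). The peak of F44E5.4 and F44E5.5 was a thresholded one, and the other genes named here held 0 thresholded peaks.

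Other HMG-box genes had thresholded peaks in 3 of 9 cases, against the 4.99% of all genes given above. They were hmg-1.1, an architectural HMG protein gene, swsn-3, of the SWI/SNF complex, and pop-1, the TCF factor of Wnt signalling. The gene hmg-1.1 had 3 thresholded peaks, the best (rank 222, signal 275) upstream in an exon of the ncRNA gene Y48B6A.23. That peak was also the best of Y54G11A.2, whose window held 4 thresholded peaks. The best peak of swsn-3 (rank 249, signal 254) lay upstream in an intron of cox-6B. The best peak of pop-1 (rank 446, signal 179) lay in an intron at the snoRNA gene W10C8.17. All 9 had a combined peak, as did 71.5% of all genes, with a median best rank of 3552, against 7401.5 over all genes with a peak. With 300, sem-2 stood between swsn-3 and pop-1, and the other Sox genes below all 3.

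Genes known to act with Sox genes in the worm had thresholded peaks in 2 of 11 cases, against 4.99% of all genes. Their windows were longer, with a median of 14.9 kb against 7.03 kb over all genes. One was sys-1, the beta-catenin partner of POP-1, whose best peak (rank 297, signal 228) lay upstream. The other was egl-27, which acts with sox-2 in the Y cell, with its best peak in an intron (rank 476, signal 173). The third by signal was lin-29, a zinc finger factor of the heterochronic pathway, at rank 2182 (signal 104). A combined peak was present at 10 of 11, against 71.5% of all genes, with a median best rank of 6054.5, against 7401.5. The exception was ceh-6, the POU homeobox partner of sox-2, with 0 peaks in the combined and replicate 1 lists and a best rank of 2912 in replicate 3.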

How the data were processed

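SEM-2 ChIP-seq peaks of 1 group of 2 replicates were analysed, grouped by the labels. Per the labels, the files are narrowPeak lists on the ce11 assembly. Both replicates' reads together gave the combined list and the thresholded list, which passed an analysis of the irreproducible discovery rate. The sources used here do not give the aligner, the peak caller or the cutoff. The signal value of a peak was deposited in column 7. The authors deposited its −log10 q-value in column 9, and the summit offset stands in column 10. The depth per sample is unknown. The labels name a control experiment, not analysed here.

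Summits were placed by the Ensembl release 115 annotation of WBcel235, coordinates 1-based, and mitochondrial peaks were left out. Peaks overlapping by 1 bp were called shared. Scripts ran in Python 3.11.15 with pandas 2.3.3, numpy 2.4.6 and matplotlib 3.10.9, and the counting was tested on planted peaks. No statistical test was made. Alternatives were other windows, cutoffs, overlaps and motifs, and each replicate alone. Members, lists and tests were chosen with earlier results of these data known. Named were the Sox genes, the 2 strongest combined peaks of each with the nearest protein-coding 5′ end, up to 3 genes of each list by signal, and the 2 genes closest in rank. Genes that hold, share or lie within 100 bp of a peak, unc-119, ceh-6 and other single peaks were named after their values were seen.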

Additional observations from a re-analysis of the deposited data

How the results depend on the processing

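Under the alternatives 14 values moved, a count by over 1.5 times and a rank or share by over 1 SD between the replicates, and 46 did not. The Sox genes with a thresholded peak went from 1 to 3 when the 5000 strongest combined peaks were used, and stayed 1 in the other 7 settings run. The 34 combined peaks fell to 22 with 1500 bp upstream and to 19 in gene bodies alone. The HMG-box genes with a thresholded peak went from 3 to 1 in gene bodies. The partner genes went from 2 to 1 with 1500 bp upstream and to 1 in gene bodies. Peaks shared with both replicates went from 23 to 14 with the 15000 strongest peaks of each replicate. Peaks with the consensus went from 2 to 6 within 100 bp of the summit, where all nuclear windows gave 24.5%, and to 7 with AACAAT or ACAATG. With these words within 100 bp, chosen after seeing the data, it went to 15, where all windows gave 24.1%. With each replicate alone, the best rank of sox-2 was 1643 to 2277 (2692 combined), that of sem-2 103 to 480 (300 combined), that of sox-3 1543 to 5760 (3998 combined), and that of egl-13 4365 to 6720 (6006 combined). The last 3 lie within 1 SD, since their replicates lay far apart. The exon share of Sox summits was 11.1 to 15.9% (17.6% combined). The summits in the sem-2 gene body were then 9 to 16 (10 combined), and those within 20 kb either side 0 to 4 (0 combined), the 4 without replicate 1. The smaller windows drop sequence by construction; for the other changes the cause was not tested. No read counts were given, so depth limits no single value in a known way.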
